A study of Mus musculus with 20 samples.

Results

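Cadherins are transmembrane proteins that hold neighbouring cells together through calcium-dependent contacts between their extracellular repeats. The classical type I and type II cadherins bind catenins through their cytoplasmic tails and so link the contact to actin. The non-clustered protocadherins lack that tail, and most of them are grouped as delta-1 and delta-2 forms. In the developing nervous system they are known for the sorting of neurons into groups, the growth of axons and the choice of synaptic partners. The genes described here are the protein-coding genes whose symbols are Cdh or Pcdh followed by a number and nothing else, which gave 34 of the 37620 genes listed, namely 23 cadherins and 11 protocadherins. Their levels are given in dorsal root ganglia (DRG), which house the sensory neurons next to the spinal cord, together with the difference between sacral and lumbar ganglia of the same embryo.

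Whole DRG came from C57Bl/6 mouse embryos at E18.5, late in gestation, and the labels give no allele or treatment. There were 10 donors (5 males, 5 females), and each provided a library of its lumbar L4-5 ganglia, which supply somatic targets, and a library of its L6-S1 ganglia, called sacral here, which also hold neurons that project to the pelvic viscera. This made 20 RNA-seq libraries in 4 groups of 5, and the comparison between levels was paired within donors. The male donors are named M1, M3, M5, M7 and M8 and the female donors F3, F7, F8, F9 and F10, and values are always listed in this order.

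The libraries held 19403023 to 39257771 reads on genes, and 18.1% to 61.4% of them lay on the 2 mitochondrial rRNA genes. Donors M5 and F7 had over 45% in both of their libraries, so results are also given without them where that changed the call. The ganglia carried sensory neuron and glial markers, while the spinal cord markers Olig1, Olig2 and Mnx1 summed to at most 0.536 RPKM (reads per kilobase of exon, relative to the size of the library) in any library. Whole ganglia were sequenced, so that fewer cells of a type and less RNA per cell cannot be told apart.

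Levels are log2 RPKM, which scales to gene length and so allows genes to be compared. The test took in the 14529 genes with a group mean of 1 RPKM (0 on this scale) or more in at least 1 group. Of the 34 members, 23 were tested and 11 stayed below that filter in each group. Among those tested, 19 reached 1 RPKM in all 4 groups, but Cdh7, Cdh9, Cdh10 and Cdh24 did so in some groups and not in others, so that the counts below describe the members that passed and not the family.

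The most abundant member was Cdh11, a type II cadherin known from mesenchyme, neural crest derivatives and glia, with a mean of 6.43 over the 20 libraries (about 88.0 RPKM). In lumbar DRG it stood at 6.61, 6.57, 5.95, 6.65 and 6.62 in males and 6.53, 5.90, 6.28, 6.28 and 6.33 in females. In sacral DRG it stood at 6.75, 6.71, 6.06, 6.93 and 6.75 in males and 6.50, 5.89, 6.45, 6.47 and 6.40 in females. The ranges overlapped, although 4 of the male sacral values lay above the highest lumbar value, and the lowest values at each level were those of M5 and F7. The fitted difference, sacral minus lumbar, was 0.12 ± 0.09 (log2, SE, n = 10 donors), with an adjusted p of 0.457. The donor differences ran from -0.03 to 0.28 with an SD of 0.09, and were above 0 in 8 of 10 donors. The next member, Cdh5 (vascular endothelial cadherin), had a mean of 4.83 and is described with the level differences.

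Pcdh1, a delta-1 protocadherin, came next with a mean of 4.54. Its lumbar values were 4.68, 5.13, 3.87, 4.68 and 5.29 in males and 5.26, 3.68, 4.13, 4.76 and 4.72 in females. Its sacral values were 4.68, 4.81, 3.84, 5.54 and 4.62 in males and 5.01, 2.93, 4.51, 4.25 and 4.38 in females. The levels overlapped, and again M5 and F7 were the lowest donors at each of them. The difference of -0.17 ± 0.20 did not pass the test (adjusted p = 0.631). Of the other delta-1 members, Pcdh9 had a mean of 4.52 and Pcdh7 one of 3.56.

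**Figure D1:**
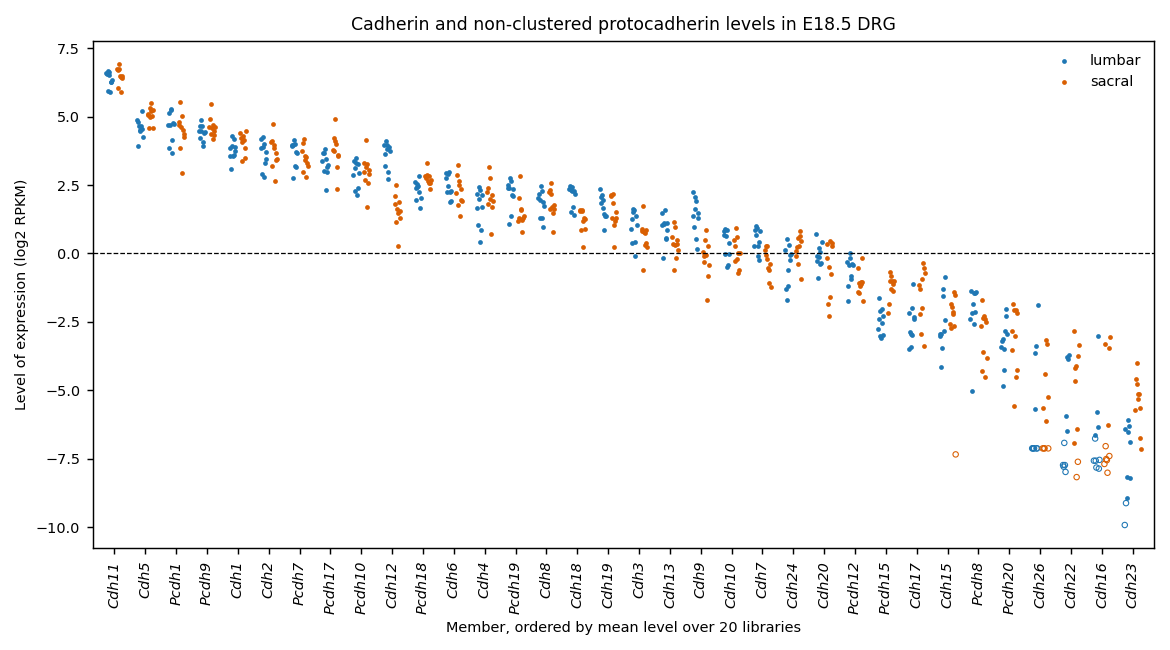
Level of expression (log2 RPKM, y axis) of the 34 members in the 10 lumbar and 10 sacral libraries, ordered by mean level. Open symbols are blank values, set to 0.5 reads or, for Cdh26, to a value below its lowest measured level. The dashed line is 1 RPKM. Cdh11 lay above every other member in every library, and Cdh12 was the tested member whose lumbar and sacral values were fully apart.

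Below Cdh11, Cdh5, Pcdh1 and Pcdh9 the levels fell in small steps that were mostly less than the spread between libraries. The type I cadherins Cdh1 (epithelial cadherin, mean 3.91, SD 0.37 over 20 libraries) and Cdh2 (neural cadherin, 3.68, SD 0.53) were followed by Pcdh17 (3.51), Pcdh10 (2.94), Cdh12 (2.59) and Pcdh18 (2.53). The type I cadherin Cdh4 (retinal cadherin) and the type II cadherins Cdh6 and Cdh8 had means of 1.87, 2.37 and 1.82. Pcdh19 stood at 1.84, Cdh18 at 1.65 and Cdh19, a cadherin of the Schwann cell lineage, at 1.60. Near the filter were Cdh3 (placental cadherin, 0.81), the GPI-anchored Cdh13 (0.64), Cdh9 (0.60), Cdh10 (0.19), Cdh7 (0.08) and Cdh24 (-0.12). The level of Cdh1 lay above those of the 5 epithelial markers, which ran from Cldn4 (-6.31) to Krt19 (0.31).

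The members below the filter were the type II cadherin Cdh20 (-0.32), the endothelial protocadherin Pcdh12 (-0.85), Pcdh15 (-1.86), the intestinal Cdh17 (-2.06), the muscle cadherin Cdh15 (-2.59), Pcdh8 (-2.60) and Pcdh20 (-3.21). Cdh26, Cdh22, the renal Cdh16 and Cdh23 had means from -5.68 to -6.54, and had reads in 10, 13, 8 and 18 of the 20 libraries. A library with 0 reads still allows up to 3 reads by counting error alone, so these are not shown to be absent, and amplified reads are not independent molecules. For Cdh22 the most reads in a library was 16, and for Cdh16 it was 17.

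Sacral and lumbar DRG were compared across all tested genes with limma, taking the donor as a block and calling a gene at a Benjamini-Hochberg adjusted p of at most 0.05. Cdh12, Cdh9, Cdh18 and Cdh7, all type II cadherins, and the delta-2 protocadherin Pcdh19 were lower in sacral DRG, while Cdh5 and the delta-2 protocadherin Pcdh18 were higher. These 7 of 23 tested members compare with 6.73% of all tested genes. For the directions, 5 of 23 were lower beside 4.03% of all genes, and 2 of 23 were higher beside 2.70%. The median difference was -0.17 over the tested members and -0.05 over all tested genes. The calls of Cdh12, Cdh9, Cdh18 and Cdh7 (4 of the 7) held in every alternative in which the gene was fitted, while those of Pcdh19, Cdh5 and Pcdh18 did not. Without the donor block these 4 were the members called, and 154 of all genes in place of 978.

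**Figure D2:**
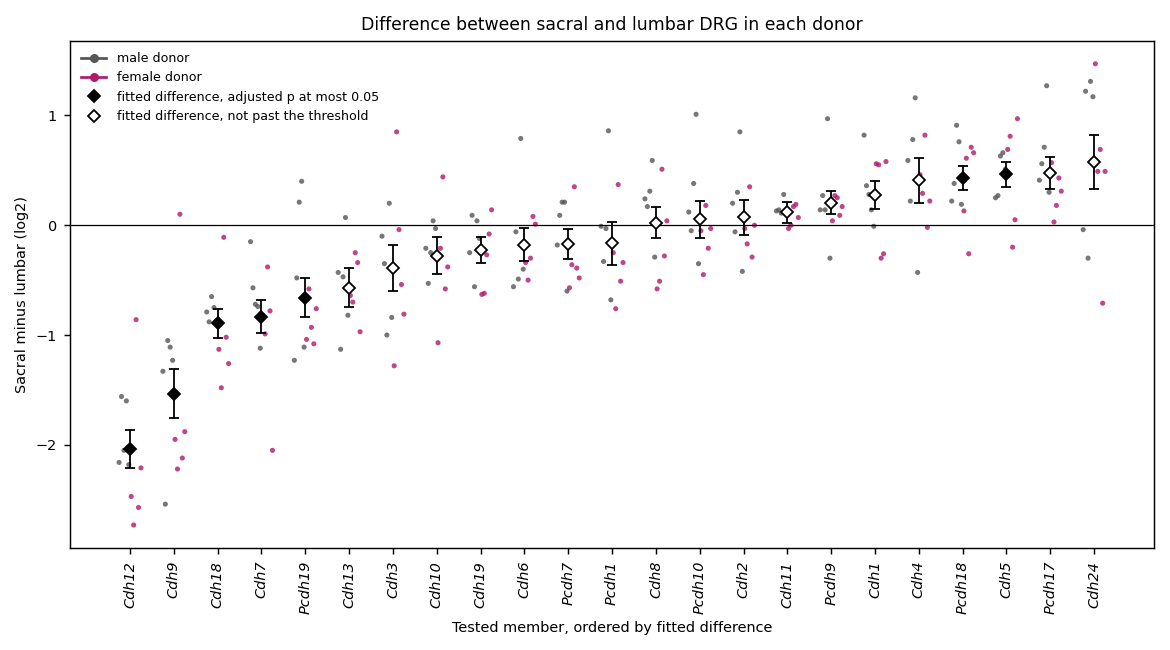
Sacral minus lumbar difference (log2, y axis) of each tested member in each donor (small points, by sex) with the fitted difference ± SE (diamonds, filled at adjusted p at most 0.05). The fitted values run from -2.04 for Cdh12 to 0.58 for Cdh24, and the 10 donor points of Cdh12 all lie below 0.

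Cdh12, a type II cadherin best known from brain, lies at chr15:21041207-21519288 on the plus strand (mm9). Its lumbar levels were 3.95, 3.65, 3.19, 4.11 and 3.81 in males and 3.96, 2.99, 2.73, 3.89 and 3.76 in females. Its sacral levels were 1.79, 2.09, 1.14, 2.51 and 1.63 in males and 1.49, 0.26, 1.87, 1.31 and 1.56 in females. Every lumbar value exceeded every sacral value. The 2 levels were fully apart, in either direction, for 0.138% of all tested genes and for no other tested member. The difference was -2.04 ± 0.17, or 4.11-fold lower in sacral DRG, with an adjusted p of 4.63e-07. It rested on 844 to 2909 reads per lumbar library and 156 to 884 per sacral library. The smallest change was in F8, whose lumbar level was the lowest of the 10.

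Cdh9, a related type II cadherin known for a part in synapse specificity, lies at chr15:16707856-16786522 on the plus strand. The lumbar levels were 1.37, 2.23, 0.97, 1.63 and 2.08 in males and 1.91, 0.53, 0.18, 1.29 and 1.47 in females. The sacral levels were 0.04, -0.31, -0.09, 0.51 and 0.85 in males and -0.04, -1.69, 0.28, -0.83 and -0.41 in females. Sacral values were lower in 9 of 10 donors, F8 being the exception, and the ranges overlapped. The fitted difference was -1.53 ± 0.22 (adjusted p = 4.19e-04), a fold of 2.90. Whole read numbers could not be recovered for Cdh9, nor for Cdh10, Pcdh15 and Cdh26, so their depth is unknown.

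Cdh18, on the same chromosome at chr15:22478777-23404173, showed the same direction in every donor. Its lumbar levels were 2.35, 2.46, 1.51, 2.32 and 2.43 in males and 2.30, 1.69, 1.42, 2.28 and 2.17 in females. Its sacral levels were 1.56, 1.58, 0.86, 1.58 and 1.56 in males and 1.18, 0.22, 1.30, 1.26 and 0.91 in females. The ranges overlapped through the low lumbar values of M5 and F8. The difference was -0.89 ± 0.13 (adjusted p = 5.16e-04), or 1.86-fold.

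Cdh7, a type II cadherin of neural crest derivatives, lies at chr1:111878904-112036734, and Cdh19 is its neighbour at chr1:112785772-112873949. For Cdh7 the lumbar levels were 0.29, 0.86, 0.68, 1.01 and 0.93 in males and 0.28, -0.10, -0.22, 0.41 and 0.81 in females. The sacral levels were 0.14, 0.29, -0.04, 0.27 and -0.19 in males and -0.54, -1.09, -0.60, -0.37 and -1.24 in females. All 10 donors were lower at the sacral level, although the male sacral values overlapped the female lumbar ones. The difference was -0.83 ± 0.15 (adjusted p = 0.00336), or 1.78-fold. Cdh19 differed by -0.23 ± 0.12 and did not pass the test (adjusted p = 0.250).

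**Figure D3:**
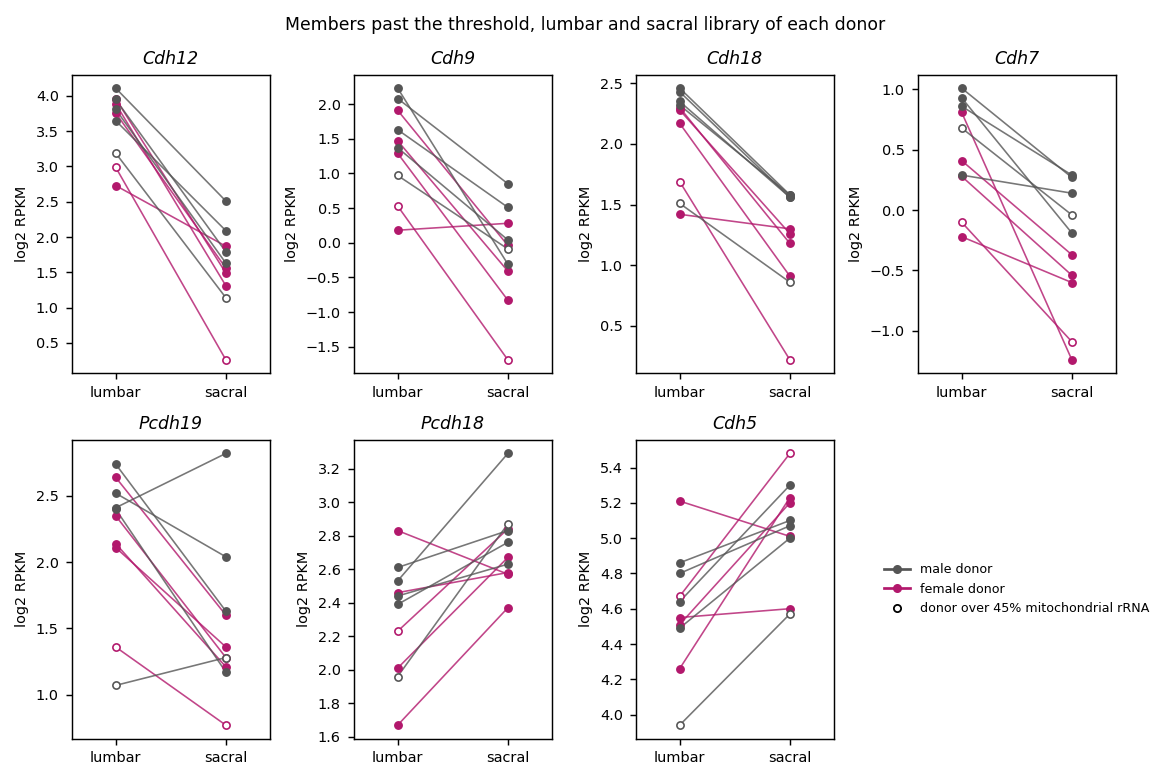
Level (log2 RPKM, y axis, a separate scale in each panel) of the 7 members past the threshold, with a line joining the lumbar and the sacral library of each donor; open symbols are donors M5 and F7, with over 45% mitochondrial rRNA. The lines of Cdh12, Cdh18 and Cdh7 fall in all 10 donors, and those of Cdh5 and Pcdh18 rise in 9.

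Pcdh19, an X-linked delta-2 protocadherin whose human counterpart is a cause of epilepsy, lies at chrX:130117402-130223532 on the minus strand. The lumbar levels were 2.40, 2.52, 1.07, 2.41 and 2.74 in males and 2.64, 1.36, 2.14, 2.35 and 2.11 in females. The sacral levels were 1.17, 2.04, 1.28, 2.82 and 1.63 in males and 1.60, 0.77, 1.21, 1.28 and 1.36 in females. All 5 female donors and 3 of 5 male donors were lower at the sacral level, the exceptions being M5 and M7, and the ranges overlapped. The difference was -0.66 ± 0.18 (adjusted p = 0.0319). Leaving out M1, M3, M8, F3, F9 or F10 took the adjusted p above 0.05, the highest value over all alternatives being 0.168. An exon of Pcdh19 overlaps Gm16795 on the opposite strand, and the strand setting of the counting is not given in the sources used here, so reads of this pair cannot be told apart.

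Cdh5, the cadherin of endothelial junctions, lies at chr8:106625525-106668402. Its lumbar levels were 4.86, 4.80, 3.94, 4.64 and 4.49 in males and 4.51, 4.67, 5.21, 4.55 and 4.26 in females. Its sacral levels were 5.10, 5.07, 4.57, 5.30 and 5.0 in males and 5.20, 5.48, 5.01, 4.60 and 5.23 in females. They were higher in 9 of 10 donors, F8 being the exception, and the ranges overlapped. The difference was 0.46 ± 0.12 (adjusted p = 0.0235), or 1.38-fold. Of the 4 other endothelial markers tested, Tek rose by 0.54 ± 0.15 (adjusted p = 0.0300), whereas the differences of Pecam1 (-0.11), Kdr (-0.04) and Emcn (0.01) did not pass the test. The call of Tek was lost in some of the alternatives. The endothelial protocadherin Pcdh12, which lay below the filter, was lower at the sacral level in 7 of 10 donors. Its difference in a fit without the filter was -0.44 ± 0.22 and did not pass the test. The summed level of the 6 endothelial markers ran from 10.1 to 17.4 RPKM in lumbar and from 9.73 to 21.9 RPKM in sacral libraries, and was higher at the sacral level in 4 of 10 donors.

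Pcdh18, known from mesenchymal tissue, lies at chr3:49547218-49561238. Its lumbar levels were 2.61, 2.39, 1.96, 2.53 and 2.44 in males and 2.46, 2.23, 2.83, 1.67 and 2.01 in females. Its sacral levels were 2.83, 2.76, 2.87, 3.29 and 2.63 in males and 2.58, 2.84, 2.57, 2.37 and 2.67 in females. F8 was again the 1 donor in which the sacral value was not the higher, and the ranges overlapped. The difference was 0.43 ± 0.11 (adjusted p = 0.0240), or 1.35-fold. The calls of Cdh5 and Pcdh18 were both lost without F7 or without F10. Cdh5 was also lost without F3, and Pcdh18 without M5. Without both M5 and F7 neither passed the test, and their adjusted p reached 0.124 and 0.193 at the highest over all alternatives.

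Marker genes of several cell types moved between the levels as well. Of 6 markers of large myelinated sensory neurons, Pvalb (-1.33), Nefh (-0.86) and Etv1 (-0.86) were lower in sacral DRG, while Ntrk3 (-0.18), Runx3 (-0.36) and Spp1 (0.70) did not pass the test. The summed level of the 6 was lower in 10 of 10 donors (88.2 to 170.7 RPKM in lumbar, 70.7 to 106.5 in sacral libraries). Of 12 Schwann cell and satellite glia markers, 5 were lower, with a sum of 412 to 574 RPKM in lumbar and 265 to 436 in sacral libraries, lower in 10 of 10 donors. Of 9 fibroblast and meningeal markers, 5 were higher, and the sum was 237 to 525 RPKM in lumbar and 323 to 686 in sacral libraries, higher in 9 of 10 donors. Of all tested genes, 4.03% were called lower and 2.70% higher in sacral DRG. Over the alternatives, 2 to 4 of the large myelinated neuron markers, 2 to 7 of the glial markers and 0 to 6 of the fibroblast and meningeal markers were called. The sum of 9 pan-neuronal markers, of which Snap25 was called, had a median of 1353 RPKM in lumbar and 1026 in sacral libraries and was lower in 9 of 10 donors. The sum of 7 nociceptor markers was also lower in 9 of 10 donors, with 1 marker called in each direction. The sums of the cartilage and the epithelial markers were higher in 9 of 10 donors. Of 3 cartilage markers tested, Col2a1 (0.80) was called. Krt19 (1.37), the 1 epithelial marker tested, was called too, and the epithelial sum was at most 6.09 RPKM in any library. Both calls were lost in some of the alternatives. The donor that went the other way was M1 for cartilage and F8 for the pan-neuronal, nociceptor, fibroblast and epithelial sums. In F8 the pan-neuronal sum was 818 RPKM in lumbar and 946 in sacral DRG, and the fibroblast sum 525 and 427. F8 was also the exception for Cdh9, Cdh5 and Pcdh18. Whether these shifts have a part in the lower Cdh12, Cdh9, Cdh18, Cdh7 and Pcdh19 or the higher Cdh5 and Pcdh18 was not tested.

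The lower genes Cdh9, Cdh12 and Cdh18 belong to a cadherin cluster on chromosome 15. Between the start of Cdh6 and the end of Cdh18, chr15:12963955-23404173 (mm9, 10.4 Mb), the annotation holds 19 genes, 6 of them protein-coding. These are Cdh6, Cdh9, Cdh10, Cdh12, Cdh18 and the thioesterase gene Acot10, and all 6 were tested. The differences of Cdh6 (-0.18 ± 0.15, adjusted p = 0.487), Cdh10 (-0.28 ± 0.17, adjusted p = 0.310) and Acot10 (-0.21 ± 0.15, adjusted p = 0.40) did not pass the test. The order along the chromosome is Cdh6, Cdh9, Cdh10, Acot10, Cdh12 and Cdh18, so that the called genes are not all adjacent.

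**Figure D4:**
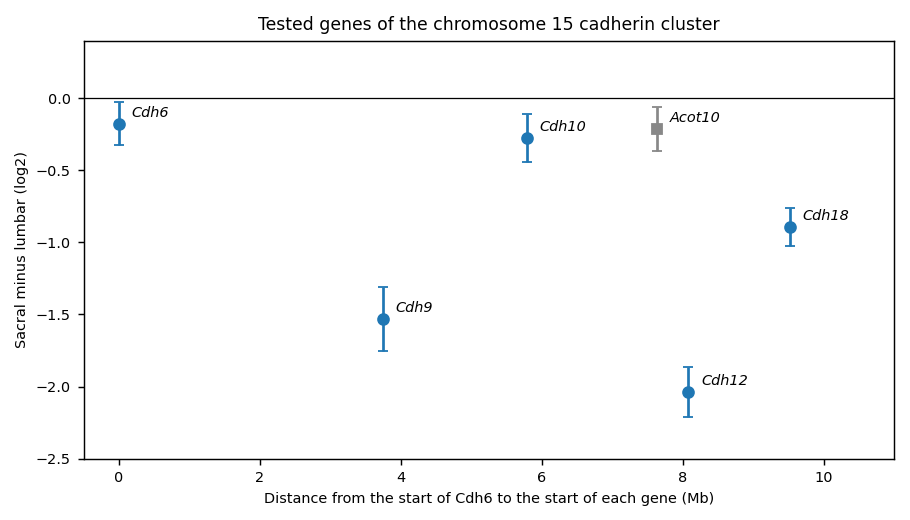
Sacral minus lumbar difference (log2, y axis; bars are SE) of the 6 tested genes of the chromosome 15 cluster against the distance of each gene's start from that of Cdh6 (Mb, x axis). Cdh12 lies lowest at -2.04 and Cdh6, Cdh10 and Acot10 lie between -0.28 and -0.18.

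The promoters of 4 neighbours in this cluster are shown because 3 of the genes were called and Cdh10 was not. They are RefSeq sequences of build GRCm38.p6, a later build than that of the files, 250 bases before to 50 bases after the RefSeq start on the plus strand. The offset between these starts and the mm9 starts of the measured genes is not the same for the 4 genes. It is by far the largest for Cdh18, whose measured gene starts at chr15:22478777 (mm9). A printed promoter therefore need not be the start of the gene model whose level was measured. They lie at chr15:21111202-21111501 for Cdh12, chr15:16728665-16728964 for Cdh9, chr15:23036213-23036512 for Cdh18 and chr15:18820079-18820378 for Cdh10. Capitals mark a match to any of the 3 motifs searched on both strands, TATAAA (the TATA box), TAATTA (a homeodomain core) and TGATTNAT (a joint site of Pbx and Hox proteins).
Cdh12: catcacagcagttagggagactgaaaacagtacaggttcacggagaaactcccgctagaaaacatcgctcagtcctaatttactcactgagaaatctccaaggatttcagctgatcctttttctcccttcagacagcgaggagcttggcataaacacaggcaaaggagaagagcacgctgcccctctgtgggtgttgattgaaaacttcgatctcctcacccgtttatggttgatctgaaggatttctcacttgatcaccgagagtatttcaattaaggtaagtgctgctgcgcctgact
Cdh9: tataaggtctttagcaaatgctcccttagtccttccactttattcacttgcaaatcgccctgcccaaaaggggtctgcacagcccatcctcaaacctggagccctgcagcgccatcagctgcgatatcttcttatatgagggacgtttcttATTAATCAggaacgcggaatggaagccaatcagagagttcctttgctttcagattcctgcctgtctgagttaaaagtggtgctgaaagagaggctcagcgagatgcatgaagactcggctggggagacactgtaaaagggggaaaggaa
Cdh18: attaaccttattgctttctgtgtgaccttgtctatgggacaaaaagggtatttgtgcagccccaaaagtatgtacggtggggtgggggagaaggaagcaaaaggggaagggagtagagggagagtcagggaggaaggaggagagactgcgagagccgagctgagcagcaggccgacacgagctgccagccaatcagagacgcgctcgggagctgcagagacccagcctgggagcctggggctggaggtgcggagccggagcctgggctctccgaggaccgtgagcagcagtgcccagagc
Cdh10: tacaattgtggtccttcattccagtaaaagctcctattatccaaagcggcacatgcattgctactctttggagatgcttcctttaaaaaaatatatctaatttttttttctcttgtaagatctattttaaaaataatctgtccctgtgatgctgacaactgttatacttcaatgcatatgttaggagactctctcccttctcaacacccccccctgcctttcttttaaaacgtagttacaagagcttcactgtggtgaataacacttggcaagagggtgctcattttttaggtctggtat

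The Cdh9 promoter held TGATTNAT on the minus strand, a motif present in 3.2% of the 32851 promoters of the table, and the other 3 held none of these motifs. Promoters were found for 22 of the 34 members, with 25 promoters in all. Over these 25, TAATTA was found in 1 (4.0%, Cdh7), against 5.3% of all promoters. TATAAA was found in 2 of the 25 (8.0%, Pcdh15 and Pcdh8), against 13.6% of all promoters. The GC content of the printed promoters was 46.7% for Cdh12, 48.7% for Cdh9, 60.3% for Cdh18 and 37.7% for Cdh10, beside a median of 52.7% over the table.

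Several members came close to the threshold without passing it. Pcdh17, a delta-2 protocadherin of axons and synapses, was higher at the sacral level in 10 of 10 donors, with 0.48 ± 0.15 and an adjusted p of 0.0543. It passed the test with the donor as a fixed term, and in 7 of 20 alternatives in all. The lumbar levels were 3.37, 3.66, 3.02, 3.67 and 3.80 in males and 3.44, 2.33, 2.99, 3.15 and 3.25 in females. The sacral levels were 3.78, 4.21, 3.73, 4.93 and 4.10 in males and 4.01, 2.36, 3.17, 3.58 and 3.56 in females. The ranges overlapped widely, with the lowest values at both levels in F7. With Cdh12, Cdh18 and Cdh7, Pcdh17 made 4 of 23 tested members with the same direction in all 10 donors, beside 2.85% of all tested genes.

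Cdh13, which lacks a transmembrane domain, had -0.57 ± 0.18 and an adjusted p of 0.0547, and was lower at the sacral level in 9 of 10 donors. Its lumbar range was -0.15 to 1.59 (median 1.06) and its sacral range -0.62 to 1.14 (median 0.34), so that the ranges overlapped. It too passed with the donor as a fixed term and in 7 of 20 alternatives, with an adjusted p of 0.00237 to 0.246. The remaining type I cadherins gave 0.41 ± 0.21 for Cdh4, 0.27 ± 0.13 for Cdh1, 0.07 ± 0.16 for Cdh2 and -0.39 ± 0.21 for Cdh3, none past the test. An exon of Cdh4 overlaps Gm10711 on the same strand. Cdh24 had a difference of 0.58 ± 0.24 from 24 to 130 reads per library (adjusted p = 0.157). It passed the filter only through the sacral groups, where its means were 0.08 in males and 0.26 in females. Its place as the highest fitted difference therefore depends in part on the filter. Exons of Cdh24 and Cdh8 overlap another gene on the opposite strand. The differences of Cdh8 (0.02), Pcdh10 (0.05), Pcdh9 (0.21) and Pcdh7 (-0.17) did not pass the test either.

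In a fit without the filter, over the 29049 genes with a value, 6 of 34 members were called, beside 1.75% of all genes. They were Cdh12, Cdh9, Cdh18 and Cdh7 again, and Pcdh15 and Cdh23, which encode the partners of the tip link between stereocilia of hair cells in the inner ear. Pcdh15 had lumbar levels of -2.75, -2.40, -1.64, -3.01 and -2.11 in males and -3.09, -2.02, -2.53, -2.98 and -2.30 in females. Its sacral levels were -2.16, -1.83, -0.99, -0.66 and -0.84 in males and -1.31, -0.99, -1.12, -1.36 and -1.02 in females. The sacral level was the higher in 10 of 10 donors, with some overlap between the ranges. The difference was 1.26 ± 0.22 (adjusted p = 0.00553), at levels under 1 RPKM in every library. An annotated pseudogene of the same name shares exon sequence with Pcdh15 on the same strand.

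Cdh23 was measured by very few reads. The lumbar libraries had 0, 6, 0, 1 and 2 reads in males and 6, 6, 9, 2 and 4 in females, and the sacral libraries had 10, 23, 21, 17 and 12 in males and 19, 11, 9, 4 and 3 in females. These add up to 36 lumbar and 129 sacral reads, and the 5 male donors gave 9 of the former and 83 of the latter. The sacral level was the higher in 9 of 10 donors, F10 being the exception. The fitted difference was 2.24 ± 0.36 (adjusted p = 0.00265). With the 2 libraries without reads set to a smaller part of a read it was 2.64, and with 0.1 RPKM added before the log2, which is more than any Cdh23 level, it was 0.25. The other 9 members below the filter did not pass this fit, the nearest being Cdh17 with 1.02 ± 0.33 (adjusted p = 0.124).

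Female and male embryos were compared at each level in the same fit. Cdh19 in sacral DRG was the member that passed, beside 1.01% of all tested genes. Its sacral levels were 2.11, 2.15, 1.29, 2.19 and 1.84 in males and 1.03, 0.25, 1.19, 1.28 and 1.52 in females. Its lumbar levels were 2.36, 2.07, 1.85, 2.15 and 1.97 in males and 1.65, 0.87, 1.45, 1.36 and 1.38 in females. In lumbar DRG every male value exceeded every female value, while in sacral DRG the male M5 fell among the females. The share of all tested genes that separate the sexes in this way was not counted, so the separation is only a description. Female minus male was -0.87 ± 0.21 in sacral DRG (adjusted p = 0.0477) and -0.74 ± 0.21 in lumbar DRG (adjusted p = 0.208). Leaving out any 1 donor except M5 took the sacral call away, with an adjusted p of up to 0.189. The interaction of level and sex for Cdh19 was -0.13 ± 0.24, so the 2 levels were not shown to differ.

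**Figure D5:**
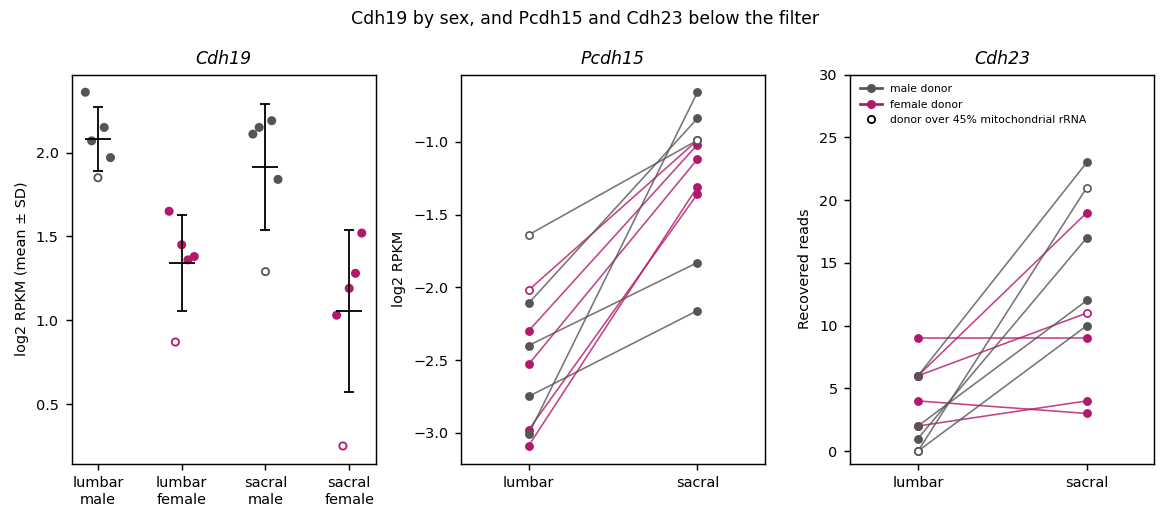
Left, Cdh19 level (log2 RPKM) in the 4 groups with mean ± SD (n = 5). Middle and right, Pcdh15 level (log2 RPKM) and Cdh23 reads per library, with a line for each donor and open symbols for M5 and F7. Male values of Cdh19 lie above female ones apart from M5, and the Pcdh15 lines all rise.

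No member was called between the sexes in lumbar DRG by limma, where 0.330% of all genes were, and 1 member had an unadjusted p under 0.05. In the other settings the count there was 0, or 1 (Cdh19) with sample quality weights. In lumbar DRG the female value was the lower for 19 of 23 tested members, beside 47.1% of all tested genes, with a median difference of -0.24 beside 0.02. In sacral DRG it was the lower for 21 of 23 tested members, beside 53.9% of all tested genes, and the median difference was -0.47 beside -0.03. The members were measured in the same libraries, so their directions are not independent. These counts therefore do not show that the family differs between the sexes. For the interaction of level and sex no member and none of the 14529 genes was called by limma, 0 members and 470 genes had an unadjusted p under 0.05, and the member count was 0 in every setting. The mean Pcdh19 difference between the levels was -0.88 ± 0.21 in the 5 female and -0.44 ± 0.74 in the 5 male donors (SD), with an interaction of -0.44 ± 0.36 that did not pass the test.

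Classical cadherins act through catenins at their cytoplasmic tails. None of 9 tested catenins and other cytoplasmic partners was called by limma, among them Ctnnb1 (beta-catenin, -0.09 ± 0.08) and Ctnnd1 (p120 catenin, 0.12 ± 0.08). Of these, 1 had an unadjusted p under 0.05, and 0 were called in each of the other settings, beside the 6.73% of all tested genes called in the level comparison. Of 12 tested genes of the wider cadherin superfamily, Fat4 rose by 0.60 ± 0.12 (adjusted p = 0.00590) and its ligand Dchs1 by 0.45 ± 0.12 (adjusted p = 0.0247). Fat3, which shapes the dendrites of neurons, fell by 0.50 on the log2 scale (SE 0.12, adjusted p = 0.0146). These 3 of 12 stand beside the same 6.73% of all tested genes. Over the alternatives between 0 and 5 of the 12 were called. The 2 tested proteases that cut cadherins were not called, at an unadjusted p under 0.05 or in any setting.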

How the data were processed

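The authors sequenced amplified cDNA on an Illumina HiSeq instrument, aligned reads to mm9 with Subread, counted unique reads per Ensembl gene with featureCounts, and applied TMM scaling (edgeR 3.12.1) and voom (limma 3.26.9). The deposited values are log2 RPKM, blank where a gene had no reads. With GENCODE M1 exon lengths they gave whole reads (within 0.05 reads) for 28324 of 29049 genes with a value. Blanks were set to 0.5 reads. Where reads could not be recovered, as for Cdh26, blanks were set a fixed step below the lowest measured value of the gene (-7.12 for Cdh26).

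Values were fitted with limma 3.58.1 (R 4.3.3, code tested on simulated data) on 4 group means with a trend in the prior and the donor as a block, since both levels came from the same embryo (correlation within donors 0.342). P-values were adjusted (Benjamini-Hochberg) over all 14529 genes tested. Fitted differences carry the SE. The members past the threshold and the 3 most abundant are given in full, and Pcdh17, Cdh13, Cdh19, Pcdh15 and Cdh23 were added after their values were seen. Members and lists were chosen with earlier results of these data known. A Pcdh15 pseudogene was left out and Pcdh11x counted with the wider superfamily. Alternatives were fits without the filter or block, the donor as a fixed term, another pseudocount or value for blanks, median centring, sample or voom weights, a mitochondrial rRNA covariate, and leaving out each donor or, added after seeing the data, M5 and F7 together.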

Additional observations from a re-analysis of the deposited data

Results flagged for a closer look

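Within each group of 5 libraries, the highest and lowest value of each member was set against Dixon's 95% limit of 0.71, wherever no library was blank. This covered 124 groups, of which chance alone would single out about 1 in 20. It singled out 13, and in each the sample that stood apart was the lowest of its group.

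In 12 of the 13 it came from M5 or F7, the donors with over 45% mitochondrial rRNA. Lumbar M5 was low for Cdh11 (5.95), Cdh2 (2.91), Pcdh7 (2.77), Cdh18 (1.51), Pcdh19 (1.07), Cdh10 (-0.03), Cdh13 (-0.15), Pcdh20 (-4.84) and Pcdh8 (-5.03), all in log2 RPKM. Sacral M5 was low for Cdh11 (6.06) and Cdh18 (0.86), and sacral F7 for Cdh11 (5.89). The remaining value was that of Cdh17 in sacral F9 (-3.37, with the nearest female at -0.92). Sacral minus lumbar without M5 and F7 was -0.85 for Cdh18 and -0.78 for Pcdh19, and both still passed the test. The part of the mitochondrial rRNA share in these low values was not tested.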

How the results depend on the processing

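For sacral against lumbar DRG, 7 members and 978 genes were called. Without the donor block, which the pairing within embryos calls for, 4 members and 154 genes were called. With sample quality weights the counts were 11 and 2998, with no filter 507 genes (6 members), and without M5 and F7 261 genes (5 members). Leaving out each donor gave 4 (without F10) to 9 members (without F8) and 401 to 1594 genes. Over 20 alternatives, or 19 for genes without recovered reads, 4 called members passed in each, 12 of the 23 members passed in none, and 20 of 23 kept their direction. Small differences that changed sign were those of Cdh2 (-0.011 to 0.15 over the donors left out), Pcdh10 (-0.025 with weights; -0.044 to 0.13) and Cdh8 (-0.012 with weights; -0.063 to 0.082). Without the filter they were those of Cdh15 (0.068 with 0.1 RPKM added; -0.41 to 0.38 over the donors), Pcdh20 (-0.26 to 0.42) and Cdh26 (-0.074 with 0.1 RPKM added; -0.43 to 0.70). Between the sexes, lumbar calls numbered 0, or 1 with weights, and 0 over the donors left out. The 1 sacral call, Cdh19, became 0 with no filter or no block, 3 with weights, 2 with the mitochondrial covariate, and 0 to 1 over the donors left out. The cause of these changes was not tested. The mean levels moved by less than 1 SD in each of 408 recomputations. Centring leaves such a mean in place, and leaving out a donor cannot move it by 1 SD. These recomputations are therefore no test of how stable the levels are. The depth of Cdh9, Cdh10, Pcdh15 and Cdh26 is unknown, and Cdh22, Cdh16 and Cdh23 had at most 23 reads in a library.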
